A study of Homo sapiens with 42 samples.

Results

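The miR-15/16 family consists of mature miRNAs that share a seed, the stretch of bases near the 5′ end that pairs with target mRNAs. Its members were taken by name as 7 of the 2657 entries of the miRNA count table: miR-15a-5p, miR-15b-5p, miR-16-5p, miR-195-5p, miR-424-5p, miR-497-5p and miR-503-5p. All 7 were found. Small RNA was sequenced from A375, a human melanoma line, SHSY5Y, a human neuroblastoma line, and HEK293, a human embryonic kidney line. All cells were wild type and untreated, grown in serum-containing medium, and harvested either confluent (named Over in the column names) or subconfluent (named Sub). The medium was RPMI for SHSY5Y and DMEM for A375 and HEK293. Each line gave a nuclear and a cytoplasmic fraction at both confluencies, with 3 libraries per group, and confluent and subconfluent HEK293 cells also gave 3 libraries each of RNA bound to AGO proteins, pulled down with the T6B peptide (AGO IP). The AGO IP libraries are labelled as total lysate and as biological replicates, whereas the methods name both whole lysate and cytoplasmic fraction as the input. Nothing states that the fraction libraries came from separate cultures, so their p-values measure the spread between libraries, which may be technical.

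Confluent HEK293 nucleus replicate 3 and confluent SHSY5Y nucleus replicate 3 held 39 and 31 counts and were left out, so these groups have 2 libraries. Depth was 9817 to 53775 counts in the other 34 fraction libraries and 910753 to 1124959 counts in the 6 AGO IP libraries. Within a line every library had its own 3′ adapter, so adapter and group cannot be told apart there, while the same group in another line was made with the same adapters. Each line was made in its own pool, and confluent and subconfluent AGO IP libraries were made in separate pools. The group means published with the study carry other names for a part of these groups: what the deposited columns call subconfluent cytoplasm and confluent nucleus trade places in each of the 3 lines. The deposited names were followed, and results that end under the exchanged names are marked as they come up.

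The family is known as a brake on the cell cycle. Its members bind the mRNAs of G1 cyclins, cyclin-dependent kinases, the checkpoint kinases CHEK1 and WEE1 and the survival factor BCL2. They are encoded in pairs: the miR-15a/16-1 pair lies in DLEU2, a locus often deleted in chronic lymphocytic leukaemia, the miR-15b/16-2 pair in SMC4, a condensin gene expressed in dividing cells, the miR-497/195 pair in its own host transcript, and the miR-424/miR-503 pair on the X chromosome. In other cell systems family members have been described to rise when cells leave the cycle.

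The mature sequences are shown because the members differ in little besides the bases after the seed, which bears on how reads can be told apart. Capitals mark the seed, bases 2 to 8, and sequences and hairpin coordinates are those of RefSeq on GRCh38.p14.
miR-15a-5p: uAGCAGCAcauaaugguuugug
miR-15b-5p: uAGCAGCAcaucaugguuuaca
miR-16-5p: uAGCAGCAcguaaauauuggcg
miR-195-5p: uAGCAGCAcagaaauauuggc
miR-424-5p: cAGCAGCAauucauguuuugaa
miR-497-5p: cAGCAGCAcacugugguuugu
miR-503-5p: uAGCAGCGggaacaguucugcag
The seed AGCAGCA is common to 6 members, and miR-503-5p carries AGCAGCG. Aligned from base 1 without gaps, miR-15a-5p and miR-15b-5p were identical at 18 of 22 positions and miR-16-5p and miR-195-5p at 19 of 21, while miR-503-5p matched the others at 10 to 13 positions. How reads that fit more than 1 entry were counted is not given in the sources used here.

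The hairpins lie at 4 places in the genome. MIR15A (chr13:50049119-50049201) and MIR16-1 (chr13:50048973-50049061) are on the minus strand in the lncRNA gene DLEU2, the first overlapping an annotated exon and the second in an intron. MIR15B (chr3:160404588-160404685) and MIR16-2 (chr3:160404745-160404825) are on the plus strand in an intron of SMC4. MIR195 (chr17:7017615-7017701) and MIR497 (chr17:7017911-7018022) are on the minus strand and overlap exons of MIR497HG. MIR503 (chrX:134546328-134546398) and MIR424 (chrX:134546614-134546711) are on the minus strand and overlap exons of MIR503HG. miR-16-5p is made with identical sequence from 2 hairpins, so its counts cannot be divided between the DLEU2 and SMC4 loci. Among the members, its neighbours miR-15a-5p and miR-15b-5p are those whose counts belong to 1 of these 2 loci each.

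miR-16-5p was the most abundant member in every group. It ranked 10 among all 2657 entries by summed counts in A375 fractions, 10 in SHSY5Y fractions, 7 in the AGO IP and 5 in HEK293 fractions. In the 12 fraction groups it made up 54.6% to 66.1% of the family's counts (group means). miR-15b-5p and miR-15a-5p came next, with 14.6% to 28.4% and 7.12% to 22.2%, followed by miR-424-5p with 1.48% to 8.52% and miR-503-5p with 0.520% to 1.78%. In the AGO IP the makeup differed: miR-16-5p held 39.7% ± 1.5 of family counts in confluent and 41.6% ± 2.10 in subconfluent cells, and miR-424-5p held 18.4% ± 0.846 and 17.6% ± 0.545 (SD, n = 3 each). Together the 7 members took between 1.99% ± 0.393 of a library's counts in confluent SHSY5Y cytoplasm and 7.97% ± 0.559 in subconfluent HEK293 nucleus (SD, n = 3 each).

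**Figure D1:**
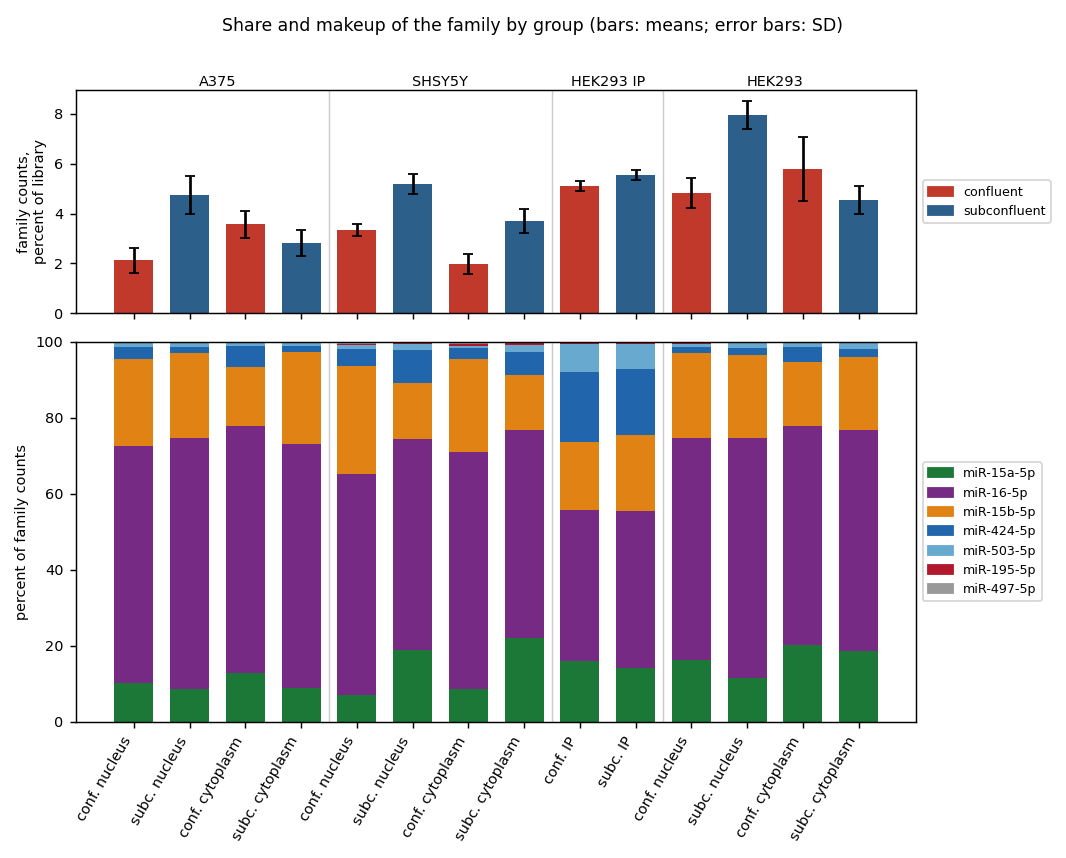
The upper panel shows the family's share of each library's counts (bars are group means, error bars SD over 2 or 3 libraries), and the lower panel shows how the family's counts divide among its 7 members in each of the 14 groups (group means, percent). miR-16-5p is the largest segment in every column, and the miR-424-5p and miR-503-5p segments are widest in the 2 AGO IP columns.

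miR-195-5p and miR-497-5p were near the limit of detection in the fractions. miR-195-5p had 20 counts over 12 A375 libraries, 45 over 11 SHSY5Y libraries and 33 over 11 HEK293 libraries, and miR-497-5p had 4, 45 and 15. Neither reached 10 counts in 3 libraries of a line, so changes in them were not detectable at this depth. In the 6 AGO IP libraries, which were far deeper, they had 145 to 219 and 89 to 249 counts per library. miR-503-5p had 1 to 26 counts per library in A375 and was not fitted there.

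**Figure D2:**
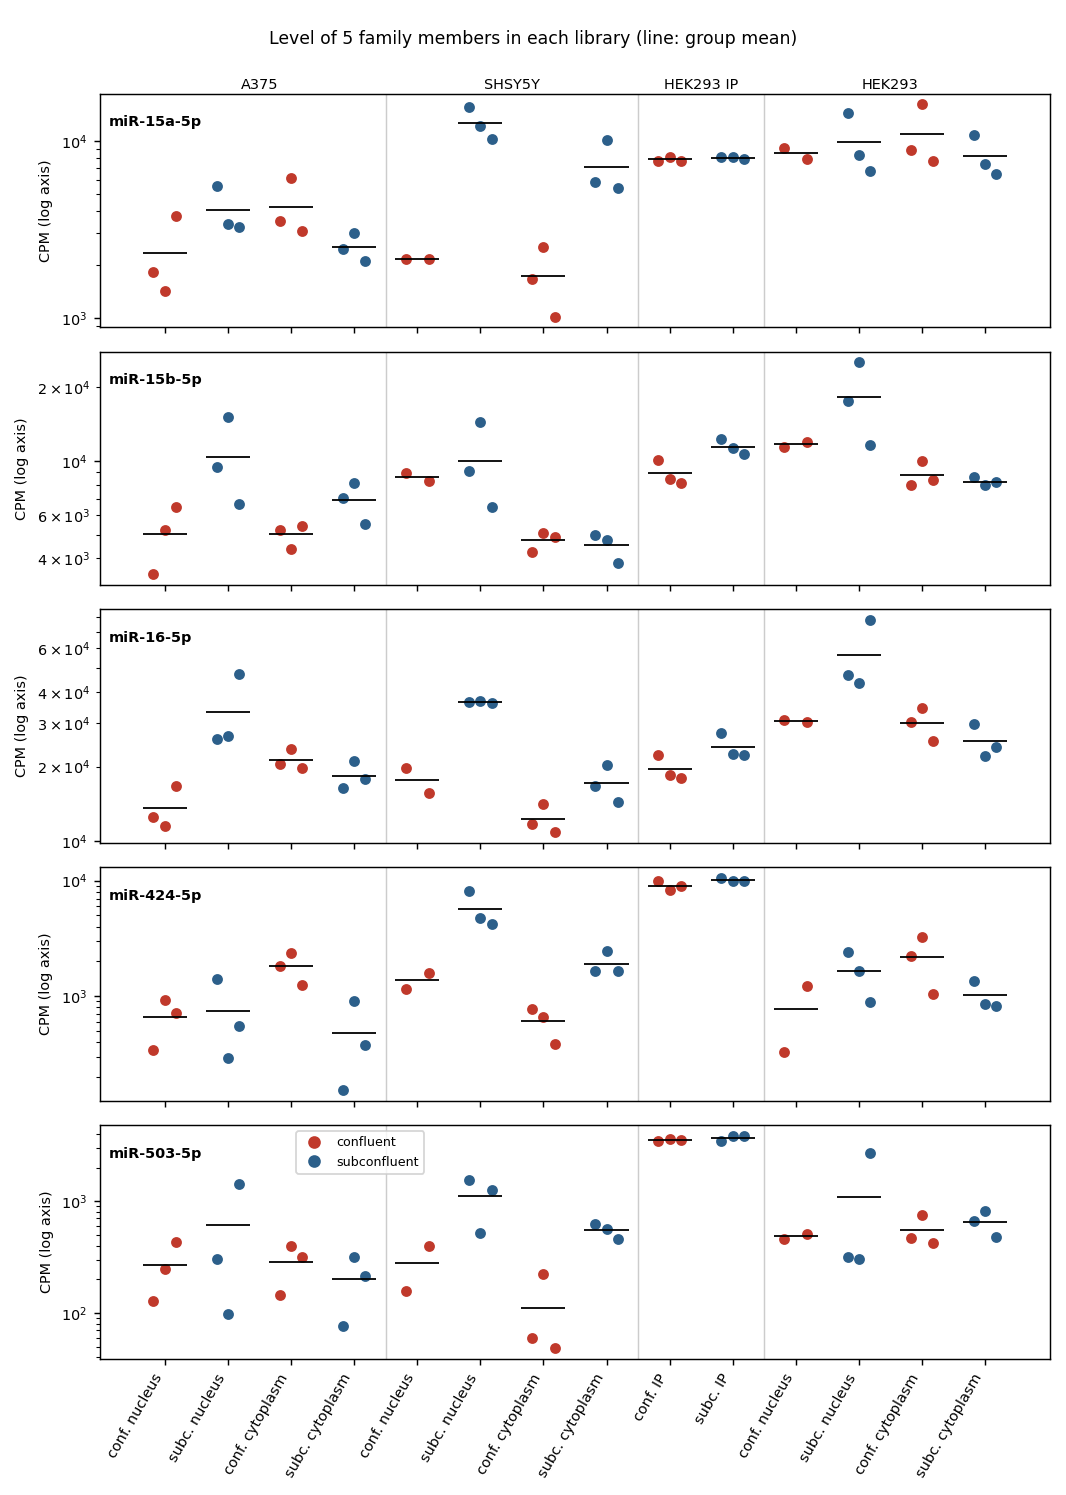
Level of 5 members in each kept library, in counts per 1000000 (CPM) after scaling within each line or within the AGO IP, on log axes, by group; red points are confluent, blue points subconfluent, and black lines are group means. In SHSY5Y all confluent points of miR-15a-5p lie below all subconfluent points of the same fraction, whereas those of miR-15b-5p overlap.

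In SHSY5Y cells 4 of the 5 members with enough counts to be tested were lower in confluent cells, under the deposited group names, and miR-15b-5p was the exception. Among the 4, miR-503-5p passed the filter on low counts only through the subconfluent libraries and is no independent evidence. miR-15a-5p had 1656, 2527 and 1017 CPM in confluent cytoplasm, against 5876, 10095 and 5390 CPM in subconfluent cytoplasm. The groups did not overlap, and the level was 4.03-fold lower in confluent cells (log2 fold change -2.01 ± 0.29 SE, adjusted p = 7.08e-07). In the nucleus it had 2147 and 2149 CPM in confluent cells, against 15577, 12086 and 10185 CPM in subconfluent cells, a 5.85-fold lower level (log2 fold change -2.55 ± 0.36 SE, adjusted p = 1.29e-06). All adjusted p-values here and below, unless another tool is named, are from edgeR's quasi-likelihood test with Benjamini-Hochberg adjustment over all entries fitted.

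The miR-424/miR-503 pair fell with it. miR-424-5p, which is named as an inducer of cell cycle exit in several differentiation models, had 769, 663 and 388 CPM in confluent SHSY5Y cytoplasm, against 1637, 2453 and 1661 CPM in subconfluent cytoplasm. In nuclei it had 1152 and 1592 CPM in confluent cells, against 8167, 4752 and 4183 CPM in subconfluent cells. Confluent libraries lay below all subconfluent ones in both fractions, by 3.07-fold in the cytoplasm (adjusted p = 0.000133) and 4.19-fold in the nucleus (adjusted p = 5.04e-05). miR-503-5p, its neighbour on the same transcript, had only 2, 7 and 1 counts in confluent cytoplasm, against 15, 22 and 25 counts in subconfluent cytoplasm. In nuclei it had 3 and 5 counts in confluent cells, against 39, 14 and 55 counts in subconfluent cells. All 5 confluent libraries held 7 counts or fewer, so miR-503-5p reached the filter on low counts only through the subconfluent libraries, where it is high, and its call is no independent evidence of a difference. Its fitted log2 fold changes were -2.19 ± 0.52 SE (adjusted p = 0.000623) in the cytoplasm and -2.10 ± 0.57 SE (adjusted p = 0.00344) in the nucleus, and the nuclear call ended without confluent nucleus replicate 1 (-1.47, adjusted p = 0.183).

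miR-15b-5p, from the SMC4 locus, did not pass the test. It had 4258, 5085 and 4893 CPM in confluent SHSY5Y cytoplasm, against 4994, 4776 and 3821 CPM in subconfluent cytoplasm, so the groups overlapped (log2 fold change 0.07 ± 0.26 SE, adjusted p = 0.829). In nuclei it had 8902 and 8277 CPM in confluent cells, against 9083, 14369 and 6479 CPM in subconfluent cells, again overlapping (log2 fold change -0.21 ± 0.29 SE, adjusted p = 0.582). miR-16-5p, which both loci make, moved less than miR-15a-5p. It had 11710, 14149 and 10852 CPM in confluent cytoplasm, against 16745, 20344 and 14399 CPM in subconfluent cytoplasm, 1.40-fold lower (adjusted p = 0.0460), a call that ended under DESeq2 (log2 fold change -0.39, adjusted p = 0.0757) and without confluent replicate 1 or 3 or subconfluent replicate 1 or 2 (-0.41 to -0.50). Among entries detected in the AGO IP, scaled on their own, its direction in the cytoplasm turned (0.22, adjusted p = 0.306). In nuclei it had 19690 and 15599 CPM in confluent cells, against 36332, 36670 and 36035 CPM in subconfluent cells, 2.06-fold lower (adjusted p = 0.000965).

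Of the 5 members fitted in SHSY5Y, 4 were thus called lower in confluent cells in each fraction, miR-503-5p among them, and none higher. Since miR-503-5p passed the filter only through the subconfluent libraries, this count is partly fixed in advance. Apart from it, miR-15a-5p, miR-16-5p and miR-424-5p were called and miR-15b-5p was not. Of all 348 entries tested in the cytoplasm, 25.3% were called lower and 33.6% higher, and in the nucleus 22.1% were called lower and 17.8% higher. Scaling to library totals moved the median of all entries by 0.49 in the nucleus, where it gave 106 entries higher and 45 lower in place of 62 and 77, and by -0.23 in the cytoplasm. The same 4 members were called in both fractions under that scaling, miR-15a-5p with log2 fold changes of -2.21 in the cytoplasm and -2.04 in the nucleus. With the names of subconfluent cytoplasm and confluent nucleus exchanged, as in the published means, miR-15a-5p (log2 fold change -0.28, adjusted p = 0.506), miR-16-5p (-0.53, adjusted p = 0.0553) and miR-503-5p (-1.13, adjusted p = 0.209) lost the call in the cytoplasm. There miR-15b-5p was then called lower (-0.86, adjusted p = 0.0132), and in the nucleus all 5 members were called lower, miR-15a-5p by a log2 fold change of -0.82 in place of -2.55. Under the exchanged names nuclear calls rose generally, to 113 of the 348 entries lower and 99 higher. In the cytoplasm 86 were then called lower and 105 higher. Among entries detected in the AGO IP the nuclear calls fell to 2, without miR-16-5p (-0.38, adjusted p = 0.105) and miR-503-5p (-1.45, adjusted p = 0.0588), and miR-15b-5p was called higher in confluent cytoplasm (0.76, adjusted p = 0.0175). Of the 191 entries in that setting, 33 were called lower in the nucleus and 32 higher in the cytoplasm.

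Ratios of members within a library need no scaling between libraries. The ratio of miR-15b-5p to miR-15a-5p counts was 2.01 to 4.81 in confluent SHSY5Y cytoplasm, against 0.473 to 0.850 in subconfluent cytoplasm. In nuclei it was 3.85 and 4.15 in confluent cells, against 0.583 to 1.19 in subconfluent cells. Every confluent SHSY5Y library thus held more miR-15b-5p than miR-15a-5p, and 5 of the 6 subconfluent ones held less. With the names exchanged the ranges of confluent and subconfluent libraries overlapped in both fractions (2.01 to 4.81 against 3.85 and 4.15 in the cytoplasm, 0.473 to 0.850 against 0.583 to 1.19 in the nucleus), so this pattern belongs to the deposited names alone. In A375 cytoplasm the ratio lay on the other side: it was 0.713 to 1.75 in confluent cells, against 2.64 to 2.88 in subconfluent cells, with no overlap. In A375 nuclei it was 1.73 to 3.65 in confluent cells, against 1.71 to 4.46 in subconfluent cells, so the groups overlapped. With the names exchanged the A375 cytoplasm ranges overlapped too (0.713 to 1.75 against 1.73 to 3.65). In HEK293 the ratio was 1.25 and 1.51 in confluent nuclei, against 1.22 to 3.06 in subconfluent nuclei, and 0.620 to 1.09 in confluent cytoplasm, against 0.797 to 1.26 in subconfluent cytoplasm, overlapping in both fractions.

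**Figure D3:**
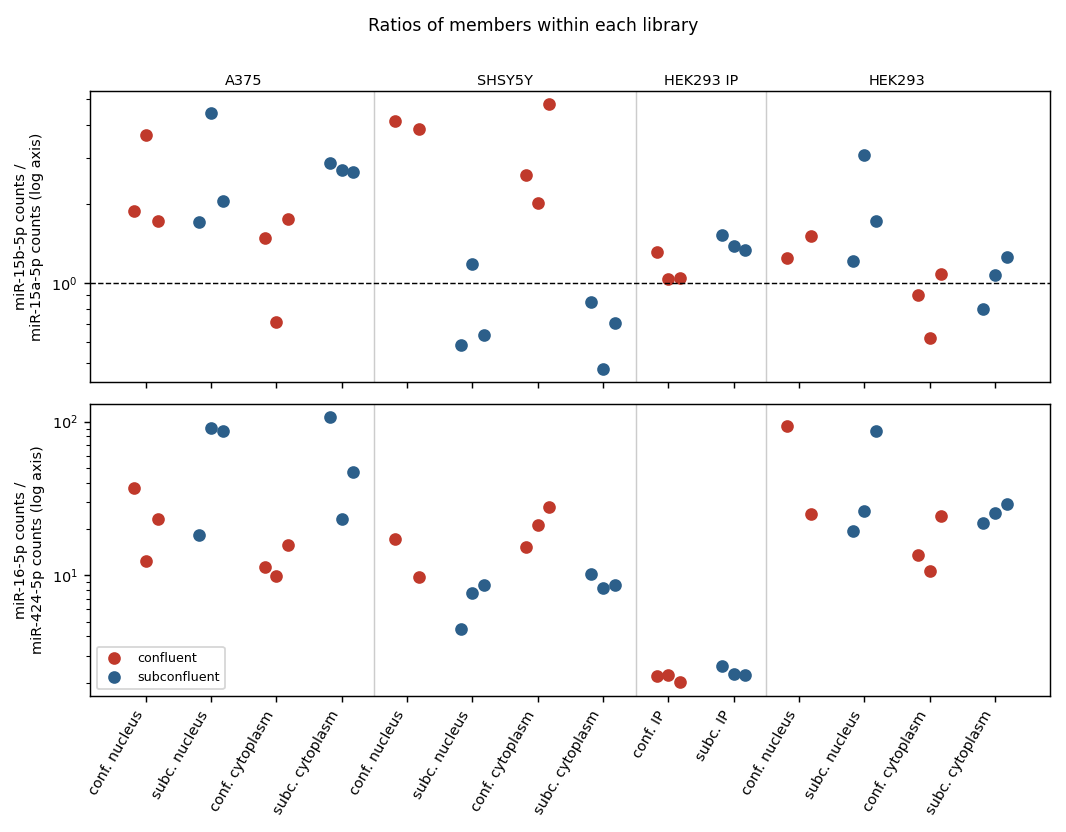
Ratio of miR-15b-5p to miR-15a-5p counts (upper panel, dashed line at 1) and of miR-16-5p to miR-424-5p counts (lower panel) in each kept library, on log axes, by group. The confluent SHSY5Y libraries lie at 2.01 or above in the upper panel and the subconfluent ones at 1.19 or below; the 6 AGO IP libraries lie lowest in the lower panel, at 2.01 to 2.58.

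In A375 cells the fractions differed from each other. miR-424-5p had 1813, 2360 and 1261 CPM in confluent cytoplasm, against 154, 904 and 376 CPM in subconfluent cytoplasm, and these groups did not overlap. The subconfluent values rest on 2, 20 and 7 counts. The level was 3.56-fold higher in confluent cells (log2 fold change 1.83 ± 0.53 SE, adjusted p = 0.00944), and this was the only one of 4 fitted members called there. Of 265 entries tested, 14.3% were called higher and 14% lower, or 49 higher and 31 lower, in place of 38 and 37, when scaled to library totals, which moved the median of all entries by 0.14. Leaving out confluent A375 cytoplasm replicate 2, subconfluent replicate 1 or subconfluent replicate 3 ended the call (log2 fold changes 1.54, 1.44 and 1.63), and leaving out subconfluent replicate 2 raised it to 2.74. With the names exchanged it was 1.49 (adjusted p = 0.0555).

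In A375 nuclei miR-16-5p had 12525, 11481 and 16761 CPM in confluent cells, against 25721, 26466 and 47453 CPM in subconfluent cells. miR-15b-5p had 3439, 5213 and 6474 CPM in confluent nuclei, against 9444, 15123 and 6653 CPM in subconfluent nuclei. Neither overlapped, and they were 2.45-fold (adjusted p = 0.00223) and 2.06-fold (adjusted p = 0.0330) lower in confluent cells. These were 2 of 4 fitted members, with none higher, while 6.04% of the 265 entries tested were called lower and 18.9% higher. miR-15a-5p (log2 fold change -0.80 ± 0.42 SE, adjusted p = 0.168) and miR-424-5p (-0.17 ± 0.59 SE, adjusted p = 0.879) did not pass. The call for miR-15b-5p ended without confluent A375 nucleus replicate 1 or 2 or without subconfluent replicate 1 or 2, where the log2 fold change was between -0.68 and -1.11, and miR-15a-5p was called without confluent replicate 3 (-1.42). With the names exchanged miR-15b-5p was at -0.58 (adjusted p = 0.283).

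In HEK293 cytoplasm miR-424-5p had 2223, 3227 and 1045 CPM in confluent cells, against 1366, 864 and 823 CPM in subconfluent cells. The groups overlapped, since confluent replicate 3 lay below subconfluent replicate 1, and the level was 2.19-fold higher in confluent cells (log2 fold change 1.13 ± 0.41 SE, adjusted p = 0.0450). It was 1 of 5 fitted members called, against 6.38% of the 345 entries called higher and 22% called lower. The call ended under DESeq2 (1.05, adjusted p = 0.0652) and without confluent replicate 2 or without any 1 of the 3 subconfluent libraries, where the log2 fold change was 0.82 to 1.23. The other 4 members had log2 fold changes of -0.22 to 0.41, none past the test.

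In HEK293 nuclei none of the 5 fitted members was called by edgeR or by DESeq2, although 2 had an unadjusted p under 0.05. There 1.16% of the 345 entries were called lower and 0% higher, and 56 had an unadjusted p under 0.05. miR-16-5p had 30915 and 30302 CPM in confluent nuclei, against 46918, 43621 and 78025 CPM in subconfluent nuclei, with no overlap (log2 fold change -0.88 ± 0.27 SE, adjusted p = 0.125). miR-15b-5p had 11428 and 11959 CPM in confluent nuclei, against 17608, 25345 and 11629 CPM in subconfluent nuclei (-0.63 ± 0.29 SE, adjusted p = 0.274), where the groups overlapped. Without subconfluent replicate 2, miR-16-5p was called (-1.04, adjusted p = 0.0486), and with the names exchanged both were called (-1.15 and -1.14). Calls rose generally under the exchanged names, to 67 of the 345 entries lower and 120 higher.

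One library position held the most counts of 2 members in all 3 lines, but in SHSY5Y only before depth was taken into account. Subconfluent nucleus replicate 3, made with the same 3′ adapter in each line, held 863 miR-16-5p counts in A375, against 256 and 273 in replicates 1 and 2, 1585 against 912 and 980 in SHSY5Y, and 1570 against 445 and 580 in HEK293. For miR-503-5p it held 26 counts in A375, against 3 and 1, 55 against 39 and 14 in SHSY5Y, and 54 against 3 and 4 in HEK293. In CPM, which take the deeper sequencing of these libraries into account, its miR-16-5p was the highest of the group in A375 and HEK293 and level with the others in SHSY5Y. Without this library the log2 fold change of miR-16-5p in A375 nuclei was still past the test, and in HEK293 nuclei it was -0.59, the smallest of the 5 values with 1 library left out. The part of the adapter in these values was not tested.

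**Figure D4:**
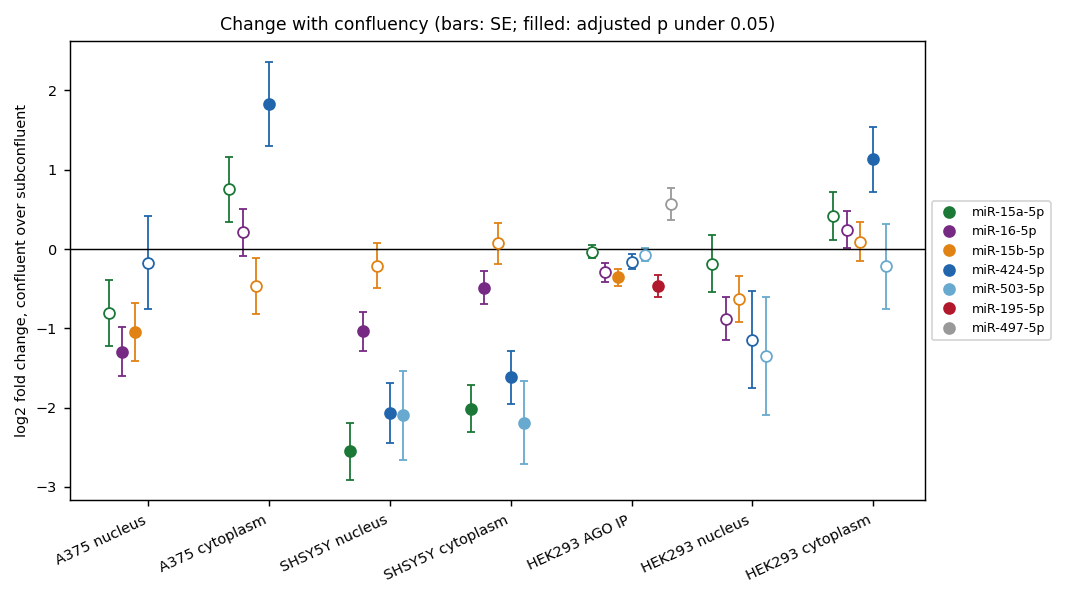
Log2 fold change of each fitted member, confluent over subconfluent, in each fraction of each line and in the AGO IP (edgeR, bars are SE, filled points have an adjusted p under 0.05). The SHSY5Y points of miR-15a-5p, miR-424-5p and miR-503-5p lie between -1.62 and -2.55, while the filled miR-424-5p points of A375 and HEK293 cytoplasm lie at 1.83 and 1.13.

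Whether confluency acted alike in the 3 lines was asked with a test of the interaction in a fit over all 34 fraction libraries, in which each group of a line is set against groups made with the same adapters in the other lines. In the cytoplasm 4 of 5 members passed, against 37.9% of the 478 entries tested: miR-15a-5p (adjusted p = 5.70e-06), miR-424-5p (2.35e-05), miR-16-5p (0.0328) and miR-503-5p (0.0466). The pass of miR-503-5p rests on 2, 7 and 1 counts in confluent SHSY5Y cytoplasm, and it was too low to be fitted in A375 alone. It is therefore no independent evidence. For miR-15b-5p the adjusted p was 0.511. In the nucleus miR-15a-5p alone passed (adjusted p = 0.00758), against 8.16% of entries, and it did not pass when scaled to library totals (adjusted p = 0.0727). These tests were not run with the names exchanged or with another tool. Line and pool, and for SHSY5Y also the culture medium, cannot be told apart in them.

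Within a line, the change with confluency was also compared between nucleus and cytoplasm. In A375 it differed for miR-16-5p (difference of log2 fold changes, nucleus minus cytoplasm, -1.5 ± 0.42 SE, adjusted p = 0.0141), 1 of 4 members, while 14.7% of entries passed. In SHSY5Y 0 of 5 members passed with edgeR and 0 had an unadjusted p under 0.05, and 1.44% of entries passed. Scaling to library totals moved the median of all SHSY5Y entries by 0.72 here and gave 8 higher and 0 lower, in place of 2 and 3. In HEK293 0 of 5 passed, 2 had an unadjusted p under 0.05 (miR-16-5p, -1.12 ± 0.36 SE, adjusted p = 0.0853, and miR-424-5p, -2.27 ± 0.74 SE, adjusted p = 0.0864), and 4.06% of entries passed. On library totals miR-16-5p in HEK293 (-1.17, adjusted p = 0.0431) and miR-15a-5p in A375 (-1.73, adjusted p = 0.0436) passed as well. Nuclear against cytoplasmic change was not tested with another tool.

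Nuclear libraries held relatively more of the family than cytoplasmic ones in SHSY5Y. All 5 fitted members were higher in the nucleus (averaged over both confluencies): miR-424-5p by 2.52-fold (adjusted p = 2.11e-05), miR-503-5p by 2.11-fold (0.0261), miR-15b-5p by 2.0-fold (2.64e-05), miR-16-5p by 1.75-fold (3.15e-05) and miR-15a-5p by 1.47-fold (0.0275). This stands against 33.9% of 348 entries called higher and 37.4% called lower. miR-16-5p, for example, had 19690 and 15599 CPM in confluent nuclei, against 11710, 14149 and 10852 CPM in confluent cytoplasm. The 5 calls fell to 0 when only the 537 entries detected in the AGO IP were scaled and tested, and to 3 under DESeq2 and library totals, each without miR-15a-5p and miR-503-5p. These 2 calls also ended in 9 and 5 of 11 fits with 1 library left out. Library totals moved the median of all SHSY5Y entries by -0.23 here. Among entries detected in the AGO IP, 22 of 191 were called higher and 27 lower. With the names exchanged 4 remained past the test and miR-15b-5p did not (log2 fold change 0.07), while 98 of 348 entries were called higher and 105 lower.

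In HEK293, miR-15b-5p was 1.71-fold higher (log2 fold change 0.77 ± 0.19 SE, adjusted p = 0.00187) and miR-16-5p 1.51-fold higher (0.59 ± 0.18 SE, adjusted p = 0.00838) in the nucleus, 2 of 5 members. Both are averages over the confluencies. In confluent HEK293 cells miR-16-5p overlapped, with 30915 and 30302 CPM in nuclei, against 30163, 34459 and 25272 CPM in cytoplasm. In subconfluent cells it had 46918, 43621 and 78025 CPM in nuclei, against 29785, 22072 and 24060 CPM in cytoplasm. Of 345 entries 18.8% were called higher and 35.1% lower, 65 and 121 entries, or 37 and 132 when scaled to library totals, which moved the median of all entries by -0.22. On that scale miR-16-5p was at 0.36 (adjusted p = 0.0611). Neither call stood with the names exchanged (0.27 and 0.32) or among entries detected in the AGO IP (0.28 and 0.10). In A375, 0 of 4 members passed with edgeR or DESeq2 and 0 had an unadjusted p under 0.05, while 7.55% of 265 entries were called higher and 14% lower. This A375 average joined opposite directions of miR-16-5p, by mean log2 CPM in the fit over all lines. In confluent A375 cells the mean was 13.75 in nuclei and 14.54 in cytoplasm. In subconfluent A375 cells it was 15.07 in nuclei and 14.22 in cytoplasm. With the names exchanged miR-15b-5p (0.76, adjusted p = 0.020) and miR-16-5p (0.54, adjusted p = 0.0479) passed in A375, while 37 of 265 entries were called higher and 54 lower.

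Across lines, levels were compared in the fit over all 34 fraction libraries, averaged over fractions and confluencies. miR-15a-5p had a lowest, median and highest level of 1492, 3398 and 7517 CPM in A375, 901, 6169 and 15762 CPM in SHSY5Y, and 6009, 6974 and 15739 CPM in HEK293. The A375 level was 2.44-fold below HEK293 (adjusted p = 7.23e-08) and the SHSY5Y level 1.87-fold below HEK293 (adjusted p = 6.21e-05), while A375 and SHSY5Y did not differ past the test (log2 fold change -0.39 ± 0.19 SE, adjusted p = 0.0871). The wide SHSY5Y range holds the difference between confluent and subconfluent cells. Under the deposited names, mean log2 CPM in confluent cytoplasm and nuclei was 10.69 and 11.06 in SHSY5Y, against 13.30 and 12.84 in HEK293. In subconfluent cells it was 12.93 and 13.74 in SHSY5Y, against 12.84 and 12.96 in HEK293, so SHSY5Y was not below HEK293 there. A375 lay above SHSY5Y in confluent cytoplasm (12.18) and below it in subconfluent cytoplasm and nuclei (11.38 and 12.08). miR-16-5p was 1.39-fold lower in A375 and 1.54-fold lower in SHSY5Y than in HEK293, and miR-15b-5p was 1.43-fold and 1.47-fold lower (adjusted p = 0.00273, 0.000169, 0.00243 and 0.00152 in that order). For these 2, A375 and SHSY5Y differed by log2 fold changes of 0.15 ± 0.14 and 0.03 ± 0.15 SE, inside their error.

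miR-424-5p was ordered differently, highest in SHSY5Y on this average. The order was not the same in every group. In confluent cytoplasm the mean log2 CPM of miR-424-5p was lowest in SHSY5Y, at 9.33, against 10.95 in HEK293 and 11.004 in A375. In confluent nuclei and in subconfluent cytoplasm and nuclei miR-424-5p was highest in SHSY5Y, at 10.43, 11.11 and 12.57. Its lowest, median and highest level was 155, 861 and 2888 CPM in A375, 343, 1719 and 8264 CPM in SHSY5Y, and 318, 941 and 3157 CPM in HEK293. SHSY5Y was 1.61-fold above HEK293 (adjusted p = 0.0162), A375 was 2.06-fold below SHSY5Y (adjusted p = 0.000644), and A375 and HEK293 did not differ past the test (log2 fold change -0.36 ± 0.27 SE). miR-503-5p was lower in A375 than in HEK293 (log2 fold change -0.82 ± 0.36 SE, adjusted p = 0.0459), a call that ended without the subconfluent nuclear replicate 3 libraries of all lines (-0.71, adjusted p = 0.0803) and in 14 of 23 fits with 1 library left out. In all, 0 members were called higher and 4 lower in A375 than in HEK293, against 33.3% and 32.6% of 478 entries. In SHSY5Y against HEK293, 1 was higher and 3 lower, against 37.9% and 33.1%. In A375 against SHSY5Y, 0 were higher and 1 lower, against 22.8% and 32.8%. The 4 lower in A375 than in HEK293 include miR-503-5p, which had 1 to 26 counts per A375 library. It was under the filter in A375 and entered this fit only through the other lines, so its call is no independent evidence. Scaling to library totals moved the median of all entries by -0.23 for A375 against HEK293 and -0.17 for SHSY5Y against HEK293. On that scale miR-424-5p was no longer called between SHSY5Y and HEK293 (0.49, adjusted p = 0.0842) and was called lower in A375 than in HEK293 (-0.61, adjusted p = 0.0466), and among entries detected in the AGO IP miR-16-5p and miR-15b-5p no longer differed between A375 and HEK293 past the test (0.07 and 0.01). Line and pool, and for SHSY5Y also the culture medium, cannot be told apart in these values.

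The change of the family with confluency was small among AGO-bound miRNAs of HEK293. miR-15b-5p had 10116, 8425 and 8144 CPM in confluent cells, against 12262, 11256 and 10648 CPM in subconfluent cells. miR-195-5p had 151, 157 and 156 CPM in confluent cells, against 240, 221 and 179 CPM in subconfluent cells. Neither overlapped, and both were lower in confluent cells, by 1.28-fold (log2 fold change -0.36 ± 0.11 SE, adjusted p = 0.0307) and 1.38-fold (-0.47 ± 0.14 SE, adjusted p = 0.0272). miR-497-5p, encoded beside miR-195-5p, lay on the other side: it had 137, 131 and 214 CPM in confluent cells, against 98, 109 and 120 CPM in subconfluent cells, also without overlap (0.57 ± 0.20 SE, adjusted p = 0.0552). miR-16-5p had 22261, 18496 and 17989 CPM in confluent cells, against 27244, 22423 and 22354 CPM in subconfluent cells, with confluent replicate 1 just below the lowest subconfluent library (-0.29 ± 0.12 SE, adjusted p = 0.0903).

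The other 3 members did not pass the test, with log2 fold changes of -0.03 ± 0.08 for miR-15a-5p, -0.07 ± 0.08 for miR-503-5p and -0.16 ± 0.10 for miR-424-5p (SE). Of 537 entries tested, 16.8% were called lower and 18.4% higher, or 58 lower and 112 higher, in place of 90 and 99, when scaled to library totals, which moved the median of all entries by 0.11. On that scale miR-195-5p was not called (-0.36, adjusted p = 0.111) and miR-497-5p was called higher (0.67, adjusted p = 0.0461). Same-numbered AGO IP libraries share a 3′ adapter and deviated together, and with the replicate block that takes this pairing into account 5 of 7 members were called, while 301 of all 537 entries were called with the block (29.1% lower and 27% higher), in place of 189. These were miR-15b-5p (log2 fold change -0.36), miR-195-5p (-0.46), miR-16-5p (-0.29) and miR-424-5p (-0.16), all lower, and miR-497-5p (0.55), higher. Without the block, leaving out 1 library gave 0 to 4 called members, and the calls of miR-15b-5p and miR-195-5p each ended in 4 of 6 such fits, including those without confluent replicate 2 or 3. Pool and confluency cannot be told apart here.

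The largest contrast in the family lay between AGO IP and fraction libraries of HEK293. These libraries also differ in pool, preparation and depth, which cannot be told apart from AGO binding. In 1 fit over 17 libraries, miR-424-5p averaged 12342 ± 1109 CPM in the AGO IP (SD, n = 6), 1069 ± 626 CPM in the nucleus (n = 5) and 1417 ± 797 CPM in the cytoplasm (n = 6). It was 14.2-fold higher in the AGO IP than in the nucleus (log2 fold change 3.83 ± 0.27 SE, adjusted p = 1.79e-13) and 9.22-fold higher than in the cytoplasm (3.20 ± 0.21 SE, adjusted p = 4.61e-15). miR-503-5p averaged 4644 ± 252 CPM in the AGO IP, 724 ± 889 CPM in the nucleus and 544 ± 145 CPM in the cytoplasm, 7.0-fold (adjusted p = 1.15e-08) and 8.52-fold (adjusted p = 3.86e-12) higher in the AGO IP. In each of the 6 AGO IP libraries both were above all 11 fraction libraries.

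miR-16-5p, by contrast, averaged 28026 ± 4568 CPM in the AGO IP, 38293 ± 16955 CPM in the nucleus and 24965 ± 3062 CPM in the cytoplasm, and did not pass either test (log2 fold change -0.32 ± 0.16 SE, adjusted p = 0.0812, against nucleus; 0.16 ± 0.15 SE, adjusted p = 0.324, against cytoplasm). miR-15b-5p was 1.67-fold higher in the AGO IP than in the cytoplasm (adjusted p = 3.59e-05) but not than in the nucleus (log2 fold change 0.10 ± 0.16 SE). miR-15a-5p was 1.35-fold higher than in the nucleus (adjusted p = 0.0475), with a log2 fold change of 0.27 ± 0.17 SE against the cytoplasm. miR-195-5p was 3.48-fold higher than in the cytoplasm (adjusted p = 1.88e-05), and miR-497-5p 4.22-fold (adjusted p = 0.000119) and 3.29-fold (adjusted p = 0.0427) higher than in cytoplasm and nucleus, the fraction values resting on 17 or fewer summed counts per fraction. These 2 members were under the filter in the HEK293 fractions and were fitted only with the AGO IP libraries, where they are high, so their calls are given as values and support nothing. The nuclear calls of miR-15a-5p and miR-497-5p ended under DESeq2 (log2 fold changes 0.02 and 1.34), and without 1 of the 11 libraries in turn they ended in 10 and 6 of 11 fits.

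Of the 5 members that passed the filter in the fractions, 3 were called higher than in the cytoplasm and 3 higher than in the nucleus, with none lower. Of the 345 entries that passed it there, 32.5% were called higher and 57.4% lower against the cytoplasm, and 25.2% and 54.8% against the nucleus. Over all 694 entries of the fit, 38.5% were called higher and 35% lower against the cytoplasm, and 28.7% and 29% against the nucleus. These calls depend on the scaling, and the cause was not tested. Scaling to library totals moved the median of all entries by -0.60 against the cytoplasm and -0.48 against the nucleus, with 200 entries higher and 281 lower in place of 267 and 243, and 139 higher and 223 lower in place of 199 and 201. On that scale miR-16-5p was lower in the AGO IP (-0.45, adjusted p = 0.00251, against cytoplasm, and -0.81, adjusted p = 5.79e-06, against nucleus), miR-15b-5p was at 0.13 and -0.42, and miR-15a-5p at -0.35 and -0.08. miR-424-5p (2.59 and 3.33) and miR-503-5p (2.48 and 2.34) were past the test and in the same direction under TMM, library totals, DESeq2 and the exchanged names.

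**Figure D5:**
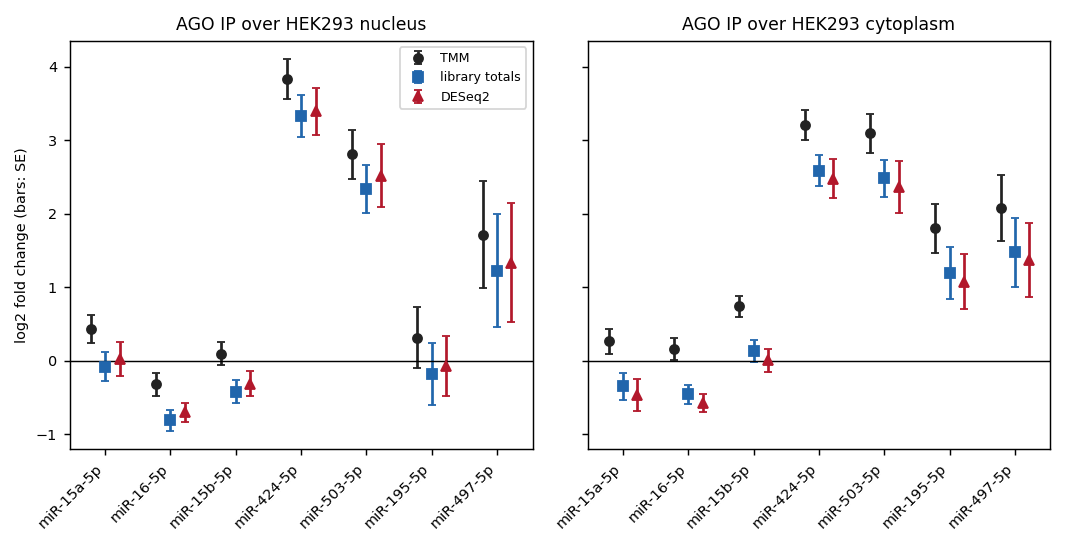
Log2 fold change of the 7 members in the AGO IP over HEK293 nucleus (left) and over HEK293 cytoplasm (right) under 3 scalings (circles TMM in edgeR, squares library totals in edgeR, triangles DESeq2; bars are SE). miR-424-5p and miR-503-5p lie above 2 in every case, whereas miR-15a-5p and miR-16-5p change sign against the cytoplasm.

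The ratio of members needs no such scaling. There were 2.01 to 2.58 counts of miR-16-5p for each count of miR-424-5p in the 6 AGO IP libraries, against 19.3 to 93.6 in the 5 HEK293 nuclear libraries and 10.7 to 29.2 in the 6 cytoplasmic libraries. The AGO IP libraries lay outside the range of either fraction. Pool, preparation and depth differ between them here too, and their part in the ratio was not tested. The ratio was lowest among the fractions in subconfluent SHSY5Y nuclei, at 4.45 to 8.61.

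Entries related to the members by position were looked at next, beginning with the opposite arms of the same hairpins, which are usually degraded. In the AGO IP the opposite arm made up 11.3% of miR-15b counts (95% Clopper-Pearson interval 11.1 to 11.6, summed over libraries, counting error only), 20.5% of miR-497 counts (18.2 to 23.1), 2.29% of miR-424 counts (2.18 to 2.42), 1.39% of miR-15a counts (1.29 to 1.49) and 0.0450% of miR-503 counts (0.0216 to 0.0828). In HEK293 fractions the share was 3.15% for miR-15b (2.56 to 3.83) and 8.40% for miR-424 (6.10 to 11.2), so that these 2 hairpins differed between AGO IP and fractions in opposite directions. Of the 8 opposite arms, miR-15b-3p alone passed the filter in HEK293 fractions, and it was higher in the AGO IP by log2 fold changes of 2.55 over cytoplasm and 2.41 over nucleus. Another 5 were fitted only with the AGO IP libraries, of which 2 were called higher than in the cytoplasm and 3 than in the nucleus. Of all 349 entries fitted by that route, 44.4% and 32.1% were called higher. In the fractions of each line 1 opposite arm was fitted and not called in any comparison of confluency or localization. With confluency in the AGO IP, miR-16-2-3p, the arm made only by the SMC4 locus, was lower in confluent cells (log2 fold change -0.66 ± 0.18 SE, adjusted p = 0.0182). It was 1 of 6 fitted, a share near the 16.8% of all 537 entries called lower there.

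The miR-424/miR-503 pair opens a longer cluster on the X chromosome that includes miR-542, miR-450a and miR-450b, with 7 further mature miRNAs on the list. None of the 7 passed the filter in HEK293 fractions, so they entered this fit only through the AGO IP libraries. By that route 7 were called higher in the AGO IP than in HEK293 cytoplasm and 6 than in the nucleus, given as a description, beside the 44.4% and 32.1% of entries above. miR-450a-5p had 2584 to 4103 counts per AGO IP library, against 0 to 16 per fraction library (log2 fold changes 4.22 ± 0.21 SE over cytoplasm and 4.73 ± 0.32 SE over nucleus), and miR-542-3p had 820 to 1449, against 1 to 6 (3.62 and 3.70). miR-450b-3p had no count in the 11 fraction libraries, so its fold is not given. On library totals miR-450a-5p stood at 3.62 and 4.25 and miR-542-3p at 3.01 and 3.22. With confluency in the AGO IP, 1 of the 7, miR-542-5p, was called higher in confluent cells (log2 fold change 0.46 ± 0.15 SE, adjusted p = 0.0433), whereas miR-424-5p and miR-503-5p had log2 fold changes of -0.16 and -0.07. Of all 537 entries 18.4% were called higher there, so 1 of 7 is no more than that share.

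Other entries share the core of the seed. The letters AGCAGC stand within bases 1 to 8 of 13 of 2370 human mature sequences in RefSeq (0.549%), the 7 members and 6 others, searched on the RNA strand only. Of the 6, miR-646, miR-6838-5p, miR-4524a-5p and miR-4524b-5p had at most 6 summed counts in any line's fractions or in the AGO IP. miR-103a-3p and miR-107, in which the letters begin at base 1 in place of base 2, were abundant. In confluent SHSY5Y cells both were lower, by log2 fold changes of -0.74 and -1.03 in the cytoplasm (adjusted p = 0.00900 and 0.0146) and -0.82 and -1.39 in the nucleus (adjusted p = 0.0180 and 0.00638). In the AGO IP both were higher in confluent cells (0.35 and 0.30, adjusted p = 0.0288 and 0.0459). Among the members miR-497-5p was not called on that side in the main fit. It was called with the replicate block, on library totals and in 2 of 6 fits with 1 library left out.

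The patterns of the 5 fitted members over the 12 fraction groups are described by the correlation of group means of log2 CPM, with no test, since the groups share adapters and pools. miR-15a-5p and miR-503-5p, from different chromosomes, had r = 0.93, while the neighbours miR-424-5p and miR-503-5p had r = 0.72. miR-15b-5p and miR-16-5p had r = 0.87, miR-15a-5p and miR-16-5p r = 0.79, and miR-15a-5p and miR-15b-5p r = 0.54. The lowest was r = 0.18, between miR-15b-5p and miR-424-5p. Among all 478 entries of that fit, those most like miR-15a-5p were miR-96-5p (0.94), miR-32-5p (0.94) and miR-103a-3p (0.93), and those most like miR-503-5p were miR-96-5p (0.96), miR-15a-5p (0.93) and miR-185-5p (0.90). For miR-15b-5p they were miR-193b-3p (0.92), miR-500a-5p (0.88) and miR-16-5p (0.87). For miR-16-5p they were miR-15b-5p (0.87), miR-93-3p (0.87) and miR-17-3p (0.84), and for miR-424-5p miR-301a-3p (0.85), miR-30e-5p (0.84) and miR-590-3p (0.84).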

How the data were processed

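The authors removed adapters with cutadapt, mapped small RNA reads to human miRNA sequences with Bowtie2, and took coverage counts with bedtools; the submitters' notes name hg38. PCR duplicates are not stated to have been removed, so counts are not independent molecules. Versions of the aligner and counter and the miRNA release are not given in the sources used here. The deposited values are whole-number counts per mature miRNA and library, not normalized. CPM are counts per 1000000 after TMM scaling.

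Tests were run with edgeR 4.0.16 under R 4.3.3 by its quasi-likelihood test on TMM-scaled counts, with p-values adjusted after Benjamini and Hochberg and called under 0.05. An entry was fitted if 3 or more of the libraries in question held 10 or more counts of it. One fit was made per line over its 4 groups, 1 for the AGO IP, 1 over the 34 fraction libraries of all lines and 1 over HEK293 with the AGO IP. Log2 CPM used a prior count of 2. The code was tested on simulated data first. Alternatives were DESeq2 1.42.0, library totals, no filter on low counts, entries detected in the AGO IP only, all libraries kept, exchanged group names, a replicate block and each library left out in turn. Without the filter, entries with at least 1 count were tested. Leaving out the subconfluent nuclear replicate 3 libraries of all lines was added after the data were seen.

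Pairing was checked by correlating deviations from group means: same-numbered AGO IP libraries, which share a 3′ adapter, gave r = 0.58, 0.34 and 0.39, whereas those of the fractions did not all exceed 0.1. Members were always named; opposite arms, cluster neighbours and entries with the seed core were counted as lists, with those called, or else the most abundant, as examples, and the 3 entries most similar to each member were named. Members and lists were chosen with earlier results of these data known. Mature sequences of all 7 members were matched by name to RefSeq on GRCh38.p14 and host genes to GENCODE 44.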

Additional observations from a re-analysis of the deposited data

Results flagged for a closer look

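The change with confluency differed between the 3 cell lines for some members, by a test of the interaction itself in edgeR. In the cytoplasm this held for miR-15a-5p (adjusted p = 5.70e-06), miR-424-5p (2.35e-05), miR-16-5p (0.0328) and miR-503-5p (0.0466). The last had 2, 7 and 1 counts in confluent SHSY5Y cytoplasm and was too low to be fitted in A375 alone, so it is no independent evidence. The log2 fold changes, confluent over subconfluent, were 0.75 in A375, -2.01 in SHSY5Y and 0.41 in HEK293 for miR-15a-5p, and 1.83, -1.62 and 1.13 for miR-424-5p. In the nucleus it held for miR-15a-5p (adjusted p = 0.00758), with -0.80 in A375, -2.55 in SHSY5Y and -0.19 in HEK293. In A375 the change of miR-16-5p differed between nucleus and cytoplasm (adjusted p = 0.0141), at -1.29 and 0.21.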

How the results depend on the processing

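Values here are members called past the test, in edgeR unless DESeq2 is named. For confluency, HEK293 cytoplasm gave 0 in place of 1 under DESeq2 and among entries detected in the AGO IP. It also gave 0 with a replicate block (miR-424-5p 0.98, adjusted p = 0.0523). Of all entries 14 of 345, 2 of 194 and 18 of 345 were called higher there, in place of 22 of 345. HEK293 nucleus gave 2 in place of 0 with names exchanged. There 67 of 345 entries were called lower and 120 higher, in place of 4 and 0. A375 cytoplasm gave 0 in place of 1 with names exchanged, where 12 of 265 entries were called higher, in place of 38. A375 nucleus gave 1 in place of 2 without the filter on low counts, among entries detected in the AGO IP and with names exchanged. Called lower were 8 of 2282, 6 of 150 and 12 of 265 entries in that order, in place of 16 of 265. SHSY5Y cytoplasm gave 2 in place of 4 with names exchanged, where 86 of 348 entries were called lower, in place of 88. SHSY5Y nucleus gave 2 in place of 4 among entries detected in the AGO IP, where 33 of 191 were called lower, in place of 77 of 348. The AGO IP gave 5 in place of 2 with the replicate block, and 301 of all entries in place of 189. Same-numbered fraction libraries did not deviate together (r from -0.17 to 0.26), so there the block is only a number.

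For localization, HEK293 gave 1 in place of 2 under library totals and without the filter, and 0 among entries detected in the AGO IP and with names exchanged. Called higher were 37 of 345, 32 of 2410, 6 of 194 and 48 of 345 entries in that order, in place of 65 of 345. A375 gave 2 in place of 0 with names exchanged, where 37 of 265 entries were called higher, in place of 20. SHSY5Y gave 3 in place of 5 under DESeq2, under library totals and without the filter, 0 among entries detected in the AGO IP, and 2 with all libraries kept. Called higher were 98 of 348, 99 of 348, 83 of 2507, 22 of 191 and 95 of 348 entries in that order, in place of 118 of 348. Under library totals the nuclear against cytoplasmic change gave 1 in place of 0 in HEK293 and 2 in place of 1 in A375. Of all entries 16 of 345 were called in HEK293, in place of 14, and 38 of 265 in A375, in place of 39. Confluency by line in the nucleus gave 0 in place of 1, with 37 of 478 entries called in place of 39. Between lines, entries detected in the AGO IP gave 1 in place of 4 for A375 against HEK293 and 2 in place of 4 for SHSY5Y against HEK293. Of the 244 entries fitted there, 92 were called higher and 82 lower in the first comparison, and 87 and 71 in the second. A375 against SHSY5Y gave 2 in place of 1 under library totals, without the filter, and without the subconfluent nuclear replicate 3 libraries, an alternative chosen after the data were seen. Of all entries 107 of 478 were called higher and 169 lower under library totals, and 95 of 2618 and 196 without the filter.

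With 1 library left out, confluency called 0 to 1 member in HEK293 cytoplasm, 0 to 1 in HEK293 nucleus, 0 to 1 in A375 cytoplasm, 1 to 3 in A375 nucleus, 3 to 4 in either SHSY5Y fraction and 0 to 4 in the AGO IP. Localization called 2 in HEK293, 0 in A375 and 3 to 5 in SHSY5Y. The line comparisons called 2 to 4 (A375 against HEK293), 3 to 5 (SHSY5Y against HEK293) and 1 to 2 (A375 against SHSY5Y). The AGO IP called 5 to 6 against cytoplasm and 2 to 5 against nucleus. The share of all entries called in these fits is not given, so the counts stand as description only. The sign of the log2 fold change turned in 15 of 78 member results, none of them called with all libraries in; the widest was miR-503-5p with confluency in HEK293 nuclei (-1.796 to 0.6203).

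Directions (log2 fold change) turned among entries detected in the AGO IP for miR-16-5p with confluency in SHSY5Y cytoplasm (0.2156), miR-15a-5p in SHSY5Y localization (-0.2316) and, for A375 against HEK293, miR-16-5p (0.06504) and miR-15b-5p (0.01099). With names exchanged miR-15b-5p turned in SHSY5Y cytoplasm (-0.8583). For the AGO IP against cytoplasm, miR-15a-5p turned under DESeq2 (-0.4677) and library totals, and miR-16-5p under DESeq2 (-0.5739) and library totals (-0.4516). Against nucleus miR-15a-5p (-0.07775) and miR-15b-5p (-0.4193) turned under library totals. These are not all turns of sign. The cause was not tested. Of 474 values of single members under other settings, 363 kept their direction and side of the threshold. These include the nuclear against cytoplasmic change with names exchanged, which the exchange leaves the same by construction, so those values show nothing about robustness. Low counts in the fractions limit miR-503-5p, miR-195-5p and miR-497-5p most.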
